A study of Homo sapiens with 6 samples.

Results

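Human mitochondria carry their own circular genome, from which the 9 transcripts described here arise: the tRNAs MT-TI, MT-TQ, MT-TW, MT-TA, MT-TS1, MT-TT and MT-TP, and the rRNAs MT-RNR1 and MT-RNR2. They were chosen by name and selected on level: they are all the rows of a table of 19823 genes that carry the name of a mitochondrial tRNA (7 rows) or rRNA (2 rows), and each had a value above 5 normalized counts in at least 4 of the 6 samples. A normalized count is a gene's read count divided by a size factor for its sample. The limit on level did not use the response, but the family was picked with results of these data known. It was just met by MT-TI and MT-TA, which lay above 5 in all 3 untreated samples and in 1 isoproterenol sample, so that a lower level under isoproterenol was partly built into their choice. MT-TQ and MT-TS1 lay above it in 5 samples and the other 5 transcripts in 6, and no row of the family fell short of it. No count or median over the family supports a result below.

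Transcript levels were measured by RNA-seq of poly(A)-selected RNA in glutamatergic iNeurons differentiated from WTc11, an established line of human induced pluripotent stem cells (hiPSCs). The neurons, of the parental line, had doxycycline-inducible NGN2 to drive differentiation, and dCas9-KRAB, a CRISPR interference repressor, with a guide against RBM12 in sorted guide-carrying cells. RBM12, an RNA-binding protein, was therefore depleted in both groups: 3 untreated samples and 3 treated with isoproterenol, an agonist that raises cAMP and whose dose and time the labels do not give. The authors describe the parental line as low in its own receptors for isoproterenol, with very modest cAMP and transcriptional responses. The comparison asks which transcripts respond to the agonist in RBM12-depleted neurons. Samples with intact RBM12 were not analysed here.

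The mitochondrial genome is transcribed from both strands into long precursors that span many genes. Most tRNAs lie between mRNAs or rRNAs and act as punctuation marks: RNase P cuts at the 5′ end of a tRNA and ELAC2 at its 3′ end, which frees the flanking RNAs too. TRNT1 then adds CCA to the tRNA, whereas most mitochondrial mRNAs receive a poly(A) tail and the rRNAs a short oligo(A) tail. Neurons depend on the respiratory chain, whose mitochondrially encoded subunits are translated with these tRNAs and rRNAs.

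The following sequences, read from the GRCh38 genome at GENCODE positions, show the tRNA that passed the test, the tRNA that passed it once replicates were paired, the tRNA that faces the latter, and the tRNA with a fitted value above 0. Each runs 5′ to 3′ along its own strand, with T for U, without the added CCA, and with the anticodon in capitals.
MT-TW (tryptophan, chrM:5512-5579, plus strand): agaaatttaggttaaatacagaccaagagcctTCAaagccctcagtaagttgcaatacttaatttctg
MT-TT (threonine, chrM:15888-15953, plus strand): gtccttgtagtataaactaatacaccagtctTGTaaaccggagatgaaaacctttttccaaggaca
MT-TP (proline, chrM:15956-16023, minus strand): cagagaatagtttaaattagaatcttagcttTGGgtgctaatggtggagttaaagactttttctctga
MT-TS1 (serine, chrM:7446-7514, minus strand): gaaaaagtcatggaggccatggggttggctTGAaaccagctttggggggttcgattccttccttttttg
The anticodon was located as the only place where these letters follow a T in the middle of the gene, at position 33 of MT-TW, 32 of MT-TT and MT-TP and 31 of MT-TS1, counted from 1 at the 5′ end. The sequences are of the reference genome and not of these cells. The genes were 68, 66, 68 and 69 bases long, with 35.29%, 37.88%, 33.82% and 49.28% G or C.

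MT-TW, the tryptophan tRNA (ENSG00000210117), was the tRNA with the highest level and the member with the largest fall. Untreated replicates 1 to 3 held 195.3, 298.0 and 241.0 normalized counts, and isoproterenol replicates 1 to 3 held 59.9, 81.9 and 71.8. Every isoproterenol sample lay far below every untreated one, and the untreated samples varied more among themselves than the isoproterenol samples did. The mean fell from 244.8 ± 51.5 to 71.2 ± 11.0 (SD, n = 3 per group), which is 3.44-fold lower, from 728 and 201 recovered reads in all. The log2 fold change was −1.76 (SE 0.163, 95% interval −2.10 to −1.42) on the log2(normalized count + 1) scale, which understates changes of low genes, with an adjusted p of 2.80e-05 in limma over 18130 genes. Within pairs of the same replicate number, the differences in log2 level were −1.69, −1.85 and −1.73. Counted from the lowest log2 fold change, MT-TW ranked 2 of the 18130 genes. In such bulk samples, fewer cells with a transcript and less of it per cell cannot be told apart.

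Of the 8 members tested, MT-TW was the 1 that passed FDR 0.05 in the lower direction, and none passed in the higher. Over all genes tested, 0.011% passed FDR 0.05 in the lower direction (2 genes) and 0.00552% in the higher (1 gene). With replicate number as a block, 2 members passed it, MT-TW and MT-TT, both lower, where 2.06% of all genes passed in that direction and 2.82% in the higher. The same 2 passed in edgeR with the block, where 2.47% of all genes passed in the lower direction. MT-TA had more than 5 recovered reads in only 3 samples and was not among the 8, so its fitted value comes from a fit with no filter on low counts.

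**Figure D1:**
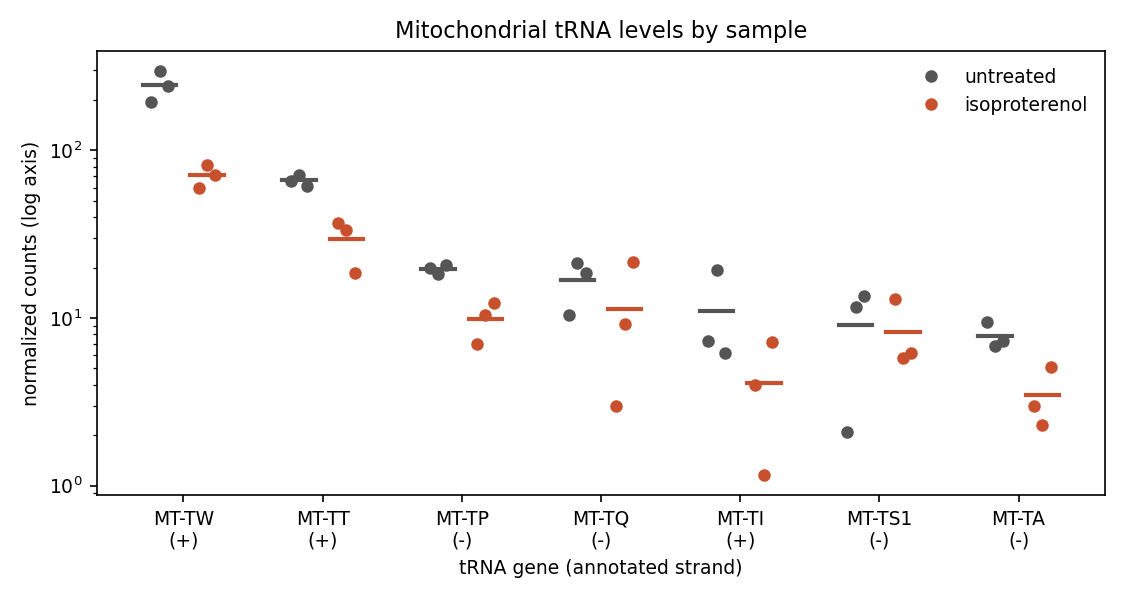
Normalized counts (log axis) of the 7 mitochondrial tRNAs in each sample, with each gene's annotated strand beneath its name; dots are samples and bars are group means (n = 3). The isoproterenol samples (orange) lie below the untreated samples (grey) without overlap for MT-TW, MT-TT, MT-TP and MT-TA. The groups overlap for MT-TQ, MT-TI and MT-TS1. The level limit favored a fall of MT-TI and MT-TA, and 6.19% of all genes tested had groups apart in this direction.

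MT-TT, the threonine tRNA (ENSG00000210195), was also lower in each isoproterenol sample. Untreated samples held 65.8, 71.6 and 61.0 normalized counts and isoproterenol samples 36.9, 33.4 and 18.5. The groups did not overlap, and isoproterenol replicate 3 was the lowest. The mean went from 66.1 ± 5.29 to 29.6 ± 9.81 (n = 3 per group), a log2 fold change of −1.19 (SE 0.251, interval −1.71 to −0.66) that did not pass FDR 0.05 (limma adjusted p = 0.144). With replicate number as a block the adjusted p in limma was 1.10e-04, and the differences within pairs were −0.82, −1.08 and −1.67. Leaving out isoproterenol replicate 2 also brought MT-TT past the threshold, with a log2 fold change of −1.30 and a limma adjusted p of 0.0307. In that fit 67 genes passed in all. MT-TT did not pass when any other single sample was left out, with limma adjusted p from 0.212 to 0.479. Its log2 fold change was −0.89 without isoproterenol replicate 3.

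The proline tRNA MT-TP (ENSG00000210196), which faces MT-TT on the other strand, held 19.8, 18.4 and 20.7 normalized counts in untreated and 6.98, 10.4 and 12.3 in isoproterenol-treated samples. Its groups did not overlap, and all 3 pairs were lower under isoproterenol, by −1.38, −0.77 and −0.70. The log2 fold change was −0.95 (SE 0.352, interval −1.69 to −0.22), which did not pass the test without (adjusted p = 0.536) or with (adjusted p = 0.148) the block in limma. It rested on 58 and 28 reads.

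The alanine tRNA MT-TA (ENSG00000210127) lay at 9.40, 6.77 and 7.24 normalized counts in untreated and 2.99, 2.31 and 5.13 in isoproterenol-treated samples. Those groups did not overlap either, but the level limit favored a fall of MT-TA, and the difference rested on 23 and 10 reads. Its log2 fold change in limma with no filter was −1.01 (SE 0.523, interval −2.10 to 0.076, adjusted p = 0.682).

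The remaining tRNAs had few reads and groups that overlapped. The isoleucine tRNA MT-TI (ENSG00000210100) held 7.31, 19.4 and 6.21 normalized counts in untreated and 3.99, 1.15 and 7.18 in isoproterenol-treated samples, for a log2 fold change of −1.26 (SE 0.581, limma adjusted p = 0.629). The glutamine tRNA MT-TQ (ENSG00000210107) held 10.4, 21.3 and 18.6 and then 2.99, 9.23 and 21.5, for −0.81 (SE 0.526, limma adjusted p = 0.758). In both, pairs 1 and 2 were lower under isoproterenol and pair 3 was slightly higher. The size of both moved with single libraries. Dropping untreated replicate 2 put MT-TI at −0.80 and dropping isoproterenol replicate 2 put it at −0.74, in a range of −1.70 to −0.74 over all 6 such fits. MT-TQ was at −0.17 without isoproterenol replicate 1 and −1.42 without isoproterenol replicate 3. The serine tRNA MT-TS1 (ENSG00000210151) held 2.09, 11.6 and 13.4 and then 13.0, 5.77 and 6.15, and its fitted value of 0.088 (SE 0.565, limma adjusted p = 0.982) turned negative under several settings. Its pairs pointed both ways, at 2.18, −0.90 and −1.01, so that at 27 and 24 reads no direction was detectable.

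Of the 8 tested members, MT-TW, MT-TT and MT-TP had isoproterenol values that all lay below the untreated ones, as did 6.19% of all genes tested. As a description only, since the level limit favored a fall of MT-TI, the median log2 fold change was −0.88 over the 8 tested members and −1.07 over the 6 tested tRNAs, and 0.0015 over all genes. Among all genes, 0.287% (52 genes) had a log2 fold change of −1 or lower, and this range held MT-TW, MT-TT and MT-TI, the last of which left it without untreated or isoproterenol replicate 2. MT-TI ranked 19, MT-TT 26, MT-TP 59 and MT-TQ 116 from the lowest of the 18130 genes, and none of these 4 passed the test without the block.

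**Figure D2:**
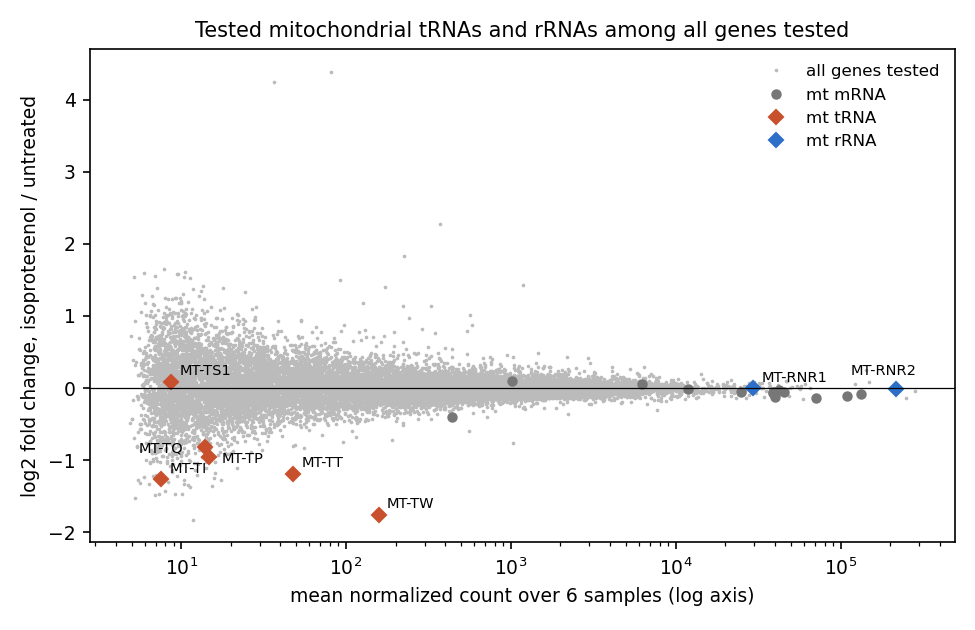
Log2 fold change (isoproterenol over untreated) against mean normalized count over 6 samples (log axis) for all 18130 genes tested (small dots), with the mitochondrial tRNAs (orange), rRNAs (blue) and mRNAs (dark grey). MT-TW, at −1.76, lies well below genes of a like level, MT-TI, MT-TP and MT-TQ lie at low counts, where all genes scatter widely, and both rRNAs lie at the zero line.

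By strand, the 3 tRNAs annotated on the plus strand (MT-TI, MT-TW and MT-TT, made with the heavy strand as template) had a summed level of 321.9 ± 61.5 normalized counts in untreated and 104.9 ± 10.2 in isoproterenol-treated samples. This was 3.07-fold lower, with no overlap of the groups, and most of it was MT-TW. The 4 on the minus strand (MT-TQ, MT-TA, MT-TS1 and MT-TP) summed to 53.3 ± 10.01 and 32.9 ± 10.6, a 1.62-fold lower mean with overlapping groups. The difference between the strands was not tested, and the minus-strand sum rested on far fewer reads. Each sum also held a tRNA whose choice partly built in a fall, MT-TI on the plus and MT-TA on the minus strand.

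In position, the 7 tRNAs shared a feature that the choice of members had not used. The annotation holds 22 mitochondrial tRNA genes, 14 on the plus and 8 on the minus strand. For each of the 7 with values here, the next gene in the 3′ direction lies on the opposite strand, and for each of the other 15, which were not analysed here, it lies on the same strand. MT-TI and MT-TQ face each other tail to tail and overlap by 3 bases (chrM:4263-4331 and chrM:4329-4400). MT-TW faces MT-TA (chrM:5587-5655) across a gap of 7 bases, and MT-TT faces MT-TP across 2 bases. MT-TS1 faces the 3′ end of MT-CO1 with a gap of 0. On their 5′ side, the 3 plus-strand tRNAs abut an mRNA with no base between: MT-ND1 before MT-TI, MT-ND2 before MT-TW and MT-CYB before MT-TT. The library kit keeps strand, but the sources used here do not say whether counting used it, and reads from facing genes that overlap could not then be told apart. How reads that cross from an mRNA into the next tRNA were counted is likewise not given.

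**Figure D3:**
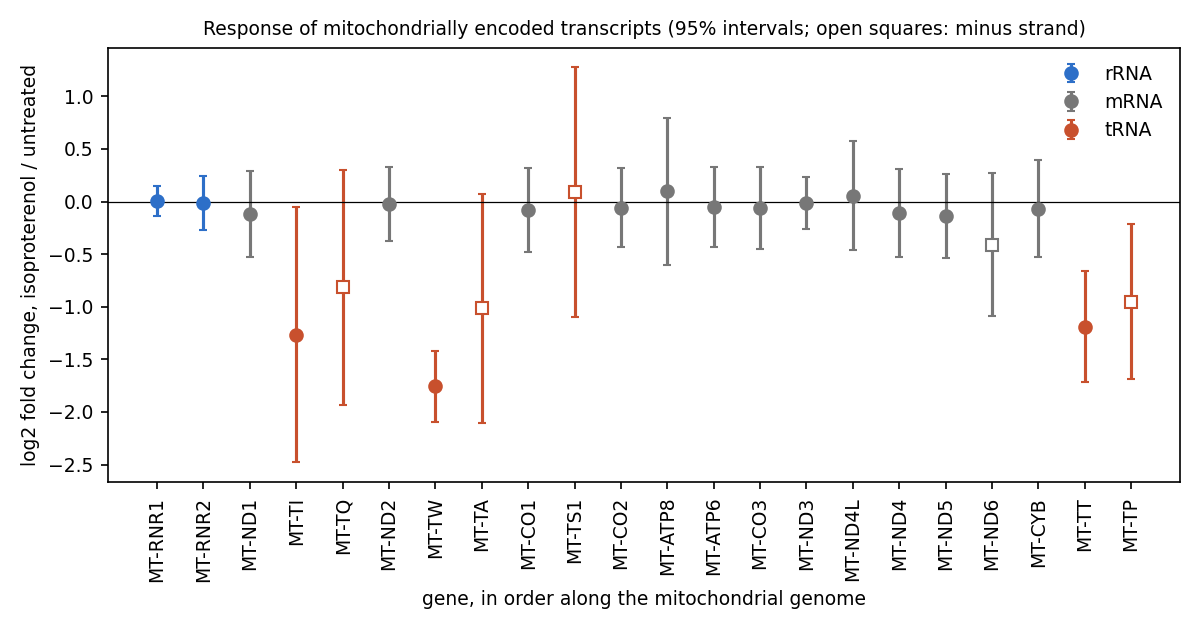
Log2 fold change (isoproterenol over untreated) with its 95% interval for the 22 mitochondrially encoded transcripts with values, in their order along the genome and without distances; open squares mark the minus strand, and MT-TA comes from the fit with no filter. The rRNAs and 12 of the 13 mRNAs lie near 0 and MT-ND6 lies at −0.41. MT-TW lies at −1.76 and MT-TT at −1.19, and the intervals of the other tRNAs are wide. The level limit favored a fall of MT-TI and MT-TA.

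The fall of MT-TW was not shared by the mRNA it abuts. MT-ND2, a subunit of complex I, went from 42686 ± 6251 to 41773 ± 2916 normalized counts (log2 fold change −0.023, limma adjusted p = 0.982). MT-TW reads per 1000 MT-ND2 reads were 5.32, 7.06 and 4.90 in untreated and 1.56, 1.90 and 1.64 in isoproterenol samples. Each isoproterenol ratio lay below each untreated one, and the mean was 3.39-fold lower (5.76 ± 1.14 and 1.70 ± 0.177). This ratio is taken within a sample and does not depend on the size factors.

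The other plus-strand tRNAs were set against their own neighbors in the same way. MT-TT reads per 1000 reads of MT-CYB, a subunit of complex III, were 1.94, 1.87 and 1.26 in untreated and 1.09, 0.865 and 0.442 in isoproterenol samples, without overlap and 2.11-fold lower in the mean. MT-CYB itself had a log2 fold change of −0.069 (limma adjusted p = 0.959). MT-TI reads per 1000 MT-ND1 reads overlapped, at 0.208, 0.456 and 0.129 against 0.117, 0.0283 and 0.178.

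**Figure D4:**
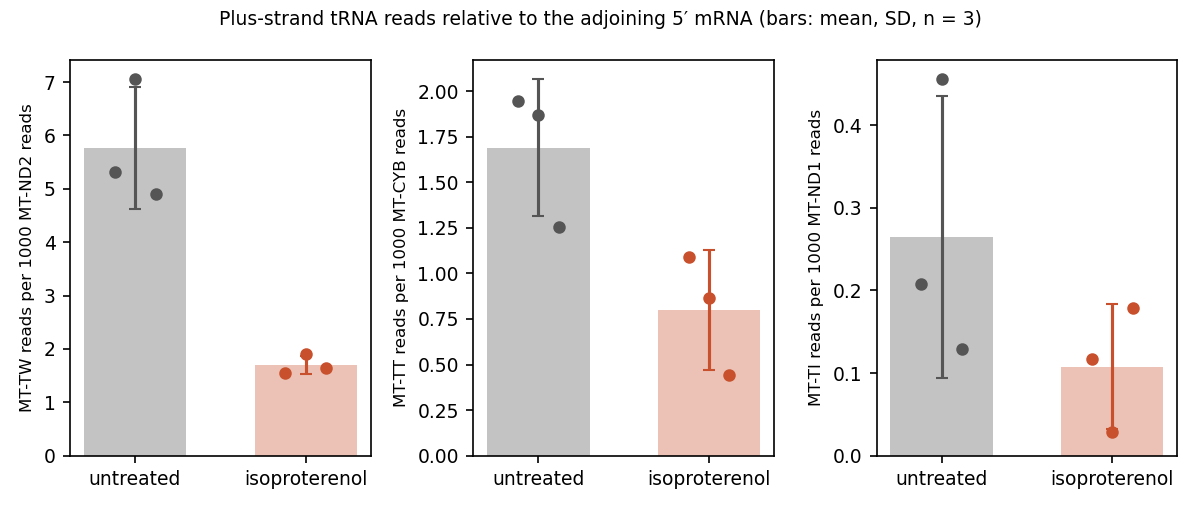
Reads of each plus-strand tRNA per 1000 reads of the mRNA that abuts its 5′ end; dots are samples, bars are means and error bars are SD (n = 3 per group), each panel with its own axis from 0. The isoproterenol samples lie below all untreated samples for MT-TW over MT-ND2 and MT-TT over MT-CYB and overlap them for MT-TI over MT-ND1.

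Across the whole organelle, reads of the 7 tRNAs per 1000 reads of the 13 mitochondrial mRNAs were 0.629, 0.781 and 0.539 in untreated samples. Under isoproterenol they were 0.256, 0.252 and 0.249, a 2.57-fold lower mean. The isoproterenol values lay close together and below all untreated ones. Without MT-TW the same ratio went from 0.227 ± 0.0375 to 0.123 ± 0.0131, 1.85-fold lower and again without overlap. Both ratios include MT-TI and MT-TA, whose choice partly built in a fall, so they are a description only. MT-TW made up 65.0% ± 1.89 of the tRNA reads in untreated and 51.5% ± 4.87 in isoproterenol samples. The summed tRNA reads numbered only 297, 462 and 356 in untreated and 127, 125 and 139 in isoproterenol samples, or 0.0454% ± 0.00813 and 0.0174% ± 9.50e-05 of all mitochondrial reads.

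The rRNAs, which form the cores of the mitochondrial ribosome subunits, were abundant and showed no detectable response. MT-RNR1, the 12S rRNA of the small subunit (ENSG00000211459, chrM:648-1601, plus strand), held 27307, 29609 and 31744 normalized counts in untreated and 27479, 30861 and 30425 in isoproterenol-treated samples. The ranges overlapped almost fully, and the log2 fold change was 0.0025 (SE 0.062, interval −0.14 to 0.14, limma adjusted p = 0.995). MT-RNR2, the 16S rRNA of the large subunit (ENSG00000210082, chrM:1671-3229, plus strand), held 197255, 220299 and 240803 and then 201961, 230099 and 217536. Its log2 fold change was −0.017 (SE 0.095, interval −0.27 to 0.24, limma adjusted p = 0.982), so the interval holds at most small changes in either direction. MT-RNR2 reads per MT-RNR1 read were 7.42 ± 0.182 in untreated and 7.32 ± 0.155 in isoproterenol samples, and the rRNAs took 30.1% ± 1.41 and 31.1% ± 0.766 of mitochondrial reads.

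Per kilobase of gene, MT-RNR2 had the highest level of the family, with 140765 normalized counts per kilobase in untreated and 138892 in isoproterenol samples, followed by MT-RNR1 with 30978 and 31015. Next came MT-TW with 3600 and 1047, MT-TT with 1002 and 449, and MT-TP with 289 and 145. In untreated samples MT-TQ (233), MT-TI (159), MT-TS1 (131) and MT-TA (113) closed the order. Across the untreated samples, values did not overlap between neighbors in the order from MT-RNR2 to MT-TP, whereas each neighboring pair from MT-TP to MT-TA overlapped. Poly(A) selection favors RNAs with a tail, so these levels describe the captured molecules, and which forms of a tRNA were captured was not tested.

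Beside the members, the 13 mitochondrial mRNAs held 0 genes past FDR 0.05 in limma, 0 at an unadjusted p under 0.05 and 0 in edgeR. Their median log2 fold change was −0.061, and 11 of the 13 values were negative, as were 8969 of the 18130 genes tested. For the summed level of the 13 mRNAs, the log2 differences within pairs 1 to 3 were 0.0044, −0.0012 and −0.25. The summed fall thus lay in pair 3. The mRNA with the lowest log2 fold change was MT-ND6, the complex I subunit whose gene is the mRNA gene on the minus strand. MT-ND6 held 420.8, 412.2 and 690.0 normalized counts in untreated and 299.3, 396.7 and 429.8 in isoproterenol-treated samples, which overlap, although each isoproterenol sample was lower than its untreated partner. Its log2 fold change was −0.41 (SE 0.263, adjusted p = 0.782 in limma), and with the replicate block its adjusted p was 2.62e-04. MT-TP reads per 1000 MT-ND6 reads, both from the minus strand, were 47.1, 44.6 and 29.99 in untreated and 23.3, 26.2 and 28.6 in isoproterenol samples, with isoproterenol replicate 3 close below untreated replicate 3.

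Nuclear genes that make or use these RNAs were counted by lists. Of 24 tested genes for mitochondrial tRNA processing and modification, 0 passed FDR 0.05 in limma with or without the block, and the median log2 fold change was −0.033. TRMT10C, a subunit of mitochondrial RNase P, had 590.1 ± 6.25 and 576.9 ± 64.8 normalized counts (log2 fold change −0.039, limma adjusted p = 0.940). PRORP, its nuclease subunit, had a log2 fold change of −0.091, ELAC2 one of −0.0024 and TRNT1 one of 0.046.

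Of 22 mitochondrial aminoacyl-tRNA synthetase and related genes, 0 passed FDR 0.05 without the block. WARS2, which charges the tryptophan tRNA, had 200.3 ± 5.98 and 224.8 ± 26.5 normalized counts (log2 fold change 0.16, limma adjusted p = 0.781). VARS2, which charges the valine tRNA, was the 1 gene of this list past FDR 0.05 with the block (limma adjusted p = 0.00762). It had 17.7 ± 5.38 and 38.9 ± 4.55 normalized counts, and without the block its limma adjusted p was 0.265.

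The 21 genes of mitochondrial transcription and RNA turnover had 0 past FDR 0.05 without the block and 1 with it. That gene was LRPPRC, which stabilizes mitochondrial mRNAs, with 6026 ± 47.2 and 5643 ± 197 normalized counts, a log2 fold change of −0.095 and limma adjusted p-values of 0.596 without and 0.0126 with the block. POLRMT, the mitochondrial RNA polymerase, had −0.073 and TFAM, which packages and helps transcribe the genome, −0.038. The 9 tested genes of mitochondrial rRNA modification and assembly had 0 past FDR 0.05 with or without the block in limma, and a median of −0.023.

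Other RNAs that share a property with the members were also followed. Of nuclear RNAs without a poly(A) tail, 3 of the 10 in the table had enough reads to be tested, and none passed FDR 0.05 without the block. RN7SL1, the RNA of the signal recognition particle, held 159.8, 99.7 and 102.4 normalized counts in untreated and 75.8, 53.0 and 84.1 in isoproterenol-treated samples, without overlap. Its log2 fold change was −0.75 (SE 0.206), with limma adjusted p-values of 0.307 without and 6.79e-04 with the block. RNU7-57P and RNU6-8, both at low counts, did not fall, with log2 fold changes of 0.50 and 0.013. The median of the 3 was 0.013. Whether capture of untailed RNA differed between the groups was not tested. The 21 nuclear pseudogenes of mitochondrial mRNAs and rRNAs had 0 past FDR 0.05 with or without the block in limma, and a median of 0.011.

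Nuclear copies can take or lose reads of a mitochondrial gene. Over at least 90% of its length, MT-TW matched 1 nuclear site exactly, as did MT-TQ and MT-TS1, and MT-TA matched 2. At 95% identity or above, MT-TA matched 4 nuclear sites, MT-RNR1 2 (best 95.7%) and MT-TI 1 (97.1%). MT-TT and MT-TP had none at 95% identity or above (best 85.94% and 91.18%), nor did MT-RNR2 (best 88.43%). How reads with several matches were treated is not given in the sources used here.

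Among the genes whose log2 level over the 6 samples correlated best with that of MT-TW, out of 16942 with 10 or more normalized counts in the mean, were TFRC (Pearson r = 0.995), NUCB1 (0.995), AP001528.2 (0.992) and OXCT1 (0.989). These values describe 6 samples that fall into 2 groups, so they mainly carry the difference between the groups, and no p is given. TFRC, the transferrin receptor for iron uptake, was the other gene past FDR 0.05 in the lower direction, with 1305 ± 156 and 768.5 ± 49.95 normalized counts (log2 fold change −0.76, limma adjusted p = 2.76e-04).

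The libraries held 18116816 to 21488793 recovered reads, of which 3.44% to 4.54% were mitochondrial. RBM12 had 244.3, 278.7 and 266.9 normalized counts in untreated and 194.6, 237.6 and 232.8 in isoproterenol-treated samples (log2 fold change −0.25, limma adjusted p = 0.607), which does not check the knockdown, since all samples carry it. The 12 glutamatergic markers summed to 157039 to 160560 normalized counts in untreated and 158062 to 163367 in isoproterenol-treated samples. STMN2, MAP2 and DCX made up most of these sums. The vesicular glutamate transporters SLC17A6 and SLC17A7 were both expressed, whereas TUBB3 was low (75.2 to 79.7 in untreated, 69.2 to 94.4 in isoproterenol samples). NEUROD2 was too low to be tested (3.10 to 9.68 and 4.99 to 10.4). Of the 11 glutamatergic markers tested, 0 passed FDR 0.05 without the block in limma and 1 with it. That marker was the glutamate receptor subunit gene GRIN1 (log2 fold change 0.29, limma adjusted p = 0.364 without and 2.67e-04 with the block). The pluripotency markers in the table (3 of 7) summed to 19.4 to 19.8 and 15.4 to 28.8, and the astrocyte markers (2 of 5) to 159.8 to 175.1 and 134.4 to 156.8. The proliferation markers (2 of 6) summed to 124.8 to 152.5 and 130.3 to 150.7, and the GABAergic markers (3 of 3) to 55.3 to 60.0 and 66.9 to 79.0. The sums for GABAergic and astrocyte markers did not overlap between groups. Their members were split: GAD1 and GAD2 had log2 fold changes of 0.74 and 0.49, but SLC32A1 had −0.38. Of the astrocyte markers, AQP4 had −0.27 and S100B −0.015. None of these passed FDR 0.05 in limma with or without the block, and their part in the results was not tested.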

How the data were processed

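RNA-seq libraries of 6 samples were made by the authors with poly(A) selection and a directional kit, aligned to GRCh38 with STAR and counted per gene with featureCounts (Subread). Versions, annotation and the strand setting are not given in the sources used here. The deposited values are a signal, namely read counts that the authors divided by a DESeq2 size factor per sample. In each column, 100% of values above 0 were whole multiples of 1 step (tolerance 0.01), which gave back the reads, and the deposited size factors ran from 0.867 to 1.033. P-values measure only the spread between these samples, which may be technical, as nothing states that they came from separate cultures.

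The filter on low counts required over 5 recovered reads in 4 or more samples, as in the study's methods (18130 of 19823). Isoproterenol was compared with untreated, 3 samples each, with limma 3.58.1 in R 4.3.3 (trend, robust moderation, two-sided) on log2(normalized count + 1), without a replicate block, and p-values were adjusted with Benjamini-Hochberg over all genes tested. With 3 samples against 3 an exact permutation test cannot give a p below 0.1, so ratios are given without p. Tests with edgeR 4.0.16 and DESeq2 1.42.0 on the recovered reads were alternatives, along with other scalings, pseudocounts and filters, the block and leaving out each sample. Both groups carry replicate numbers 1 to 3 in their titles. Over 11587 genes, the residuals of samples sharing a number had correlations of 0.2687, 0.4934 and 0.3882, each above 0.1, so numbers were taken to pair samples. The main fit has no block and so does not use this pairing, and a gene that does not pass it may pass the blocked fit. Blocked values are printed where a call changed.

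In simulated data of 17830 genes, limma recovered 96% of 100 genes changed 1.5-fold and 100% of 100 changed 2-fold, with 12 false calls. The changed genes were drawn only from those averaging 100 or more reads, and no effect of replicate number was simulated. These rates therefore do not apply to the tRNAs with fewer reads. How far they hold for other genes in data with an effect of replicate number was not tested. The members and lists were chosen with earlier results of these data known. The rule for named genes took members past FDR 0.05 with or without the block and the genes beside them, both rRNAs, the tRNA of the highest level and those of the largest rise and fall, up to 3 minus-strand tRNAs, the 5 genes most like the member of the largest fall, and RBM12. MT-TI, MT-TQ, MT-ND6 and the genes named from lists were chosen after their values were seen. A gene that the rule took is not reported here. Positions and neighbors came from GENCODE release 44 on GRCh38, and nuclear copies from a search of chromosomes 1 to 22, X and Y.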

Additional observations from a re-analysis of the deposited data

How the results depend on the processing

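MT-TW passed FDR 0.05 in all 21 alternatives, with log2 fold changes from −1.91 to −1.61 and adjusted p-values from 1.18e-29 to 0.00104 in limma, edgeR and DESeq2. MT-TT passed it in 4 of 20, namely limma, edgeR (adjusted p = 9.88e-05) and unfiltered limma with the replicate block and limma without isoproterenol replicate 2, and its log2 fold change ran from −1.37 to −0.89. MT-TP, MT-TI, MT-TQ, MT-TA, MT-TS1 and both rRNAs passed in none. The number of members past FDR 0.05, 1 as reported, was 2 with the replicate block in limma, in edgeR and in limma without a filter (a block alternative added after seeing the data, as was unfiltered edgeR). It was 1 to 2 when single samples were left out, 2 without isoproterenol replicate 2.

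Over all genes, 3 passed as reported. With the replicate block pairing the samples, 885 passed in limma, 977 in edgeR and 845 in limma without a filter. Without it edgeR gave 3, DESeq2 21, limma without robust moderation 10 and scaling to the mitochondrial mRNAs 15. That scaling moved the median of all genes to 0.085 and the split from 1 higher and 2 lower to 14 higher and 1 lower. DESeq2 gave 17 higher and 4 lower. Leaving out single samples gave 2 to 67 genes, 67 without isoproterenol replicate 2, 7 without untreated replicate 2 or isoproterenol replicate 1 and 6 without isoproterenol replicate 3. The cause was not tested.

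The median log2 fold change of the members, −0.88, was −0.017 when genes needed a mean of 50 or more, which kept only 3 members, and −1.02 to −0.50 with single samples left out, −0.50 without isoproterenol replicate 1. Values near 0 turned sign. MT-RNR1 was −0.00065 in edgeR, −0.00045 in DESeq2, −0.0014 in unfiltered edgeR, and −0.053 to 0.055 with single samples left out. MT-RNR2 was 0.067 when scaled to mitochondrial mRNAs and −0.091 to 0.053 with single samples left out. MT-TS1 was −0.0031 with a pseudocount of 5, −0.12 in edgeR, −0.083 in edgeR with the block, −0.12 in DESeq2 and in unfiltered edgeR, and −0.62 to 0.49 with single samples left out. DESeq2 gave no adjusted p for MT-TI or MT-TS1. MT-TI, MT-TQ, MT-TA and MT-TS1 had 50 reads or fewer in each group and MT-TP had 58 and 28, so their intervals are wide, and what depth would have shown was not tested.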
